A study of Drosophila melanogaster with 8 samples.

Results

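Double mutant females were compared with wild type females at the onset of metamorphosis. Groups were taken from the sample titles, which put 4 of the 8 arrays of the series in this comparison, 2 double mutant females and 2 wild type females. Each array held RNA of 1 whole white prepupa, at 0 hours after puparium formation. The wild type females were w1118, a white-eyed laboratory strain. The labels give the mutants only as bap170;bap180, and name neither their alleles nor their genetic background. The remaining 4 arrays are males of the same genotypes and enter through the shared estimate of spread and through the test of the sex difference.

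Brahma is the ATPase of the fly SWI/SNF complexes, which slide and evict nucleosomes and so change access to promoters and enhancers. Bap170 and polybromo, the present name of bap180, are subunits of the form called PBAP, while Osa belongs to the alternative form called BAP. At this stage a pulse of the steroid ecdysone ends larval feeding, the larval midgut and salivary glands are about to be destroyed, and the larval cuticle hardens into the pupal case.

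Female arrays had similar overall signal, with medians of 27.8 to 29.2 in deposited intensity units. Across probe sets the wild type replicates correlated at r = 0.99 and the mutant replicates at r = 0.988, against 0.976 to 0.979 between genotypes. The 3' minus 5' difference of the actin control was 0.43 and 0.45 (log2) in wild type and 0.62 and 0.45 in mutants, and that of the GAPDH control was 1.01 and 1.19 in wild type and 1.49 and 1.22 in mutants. The larger mutant value of both controls belonged to replicate 1, as did that of the eIF-4a control (1.08 against 0.94). The 18S control went the other way, at 1.10 in mutant replicate 1 and 1.49 in replicate 2, with 1.33 and 1.43 in wild type. The part of these differences in the results was not tested. As a check of the sex labels, msl-2, which encodes the male-specific component of dosage compensation, read 5.15 to 5.39 (log2) on the 4 female arrays and 5.97 to 6.39 on the 4 male arrays. Nothing in the labels says that the animals came from separate cultures, so p-values measure the spread between single animals.

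A gene was called when its adjusted p in limma, over all 18769 probe sets tested, was under 0.05. In females 47 genes were called higher in double mutants and 99 lower, out of 11982 genes each read on 1 probe set. These are 0.392% and 0.826% of the genes tested, and 1.22% in all. In none of the 146 called genes did the female groups overlap, and a call on 2 arrays per group favours this. Over all genes the groups did not overlap for 17.3% with mutants higher and 23.4% with mutants lower. Over probe sets the counts were 60 higher (0.32%) and 117 lower (0.623%), together 0.943% of those tested, while an unadjusted p under 0.05 was reached by 8.94%. The called rises ranged upwards from 0.84 (log2) with a median of 1.83, and the called falls had a median of -1.83. All 146 called genes kept their sign when any 1 of the 8 arrays was left out, as the lack of overlap requires. Many calls ended without a female array. Such an omission leaves 1 animal in its group and 3 residual degrees of freedom in place of 4. A call can thus end whichever female is dropped, and its end does not show that it rested on that animal. Of the 146, 39 and 31 stayed called without wild type female replicate 1 or 2, and 36 and 32 without mutant female replicate 1 or 2. A set of 22 genes, 7 higher and 15 lower, stayed called whichever array was left out.

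Both mutated genes read lower in mutant females. Bap170 read 7.35 and 7.25 (log2) in wild type and 5.77 and 5.69 in mutants. It fell by 1.58 ± 0.17 (SE, n = 2 per group, limma adjusted p = 0.0101), a 2.98-fold lower level. The gene polybromo read 6.10 and 6.30 in wild type and 3.96 and 4.11 in mutants, below the median of every female array (4.80 to 4.87). It fell by 2.16 ± 0.18 (adjusted p = 0.00364). Whether these probe sets cover the mutated stretches is not known here. For both genes the female groups were well apart, with less than 0.25 between replicates. Of 8 measured Brahma complex genes no other was called or had an unadjusted p under 0.05: mor, whose product is a core scaffold, differed by -0.29 ± 0.19 (adjusted p = 0.79), brm, the ATPase gene, by -0.12 ± 0.15 (adjusted p = 0.919) and osa by 0.24 ± 0.27 (adjusted p = 0.899). The list median was -0.27, beside -0.04 over all genes. It moved to -0.12 without mutant female replicate 1 and to -0.52 without mutant female replicate 2. The call of Bap170 ended without any 1 female array (adjusted p up to 0.0914), whereas polybromo stayed called. Of 11 measured genes among the 3 protein-coding neighbours on each side of the mutated genes none was called by limma, with Debcl (-1.16 ± 0.22, adjusted p = 0.0854, unadjusted p = 0.00119) the lowest p. The genes next to Bap170, Trap1 (-0.66 ± 0.15, unadjusted p = 0.0035) and Fmo-2 (-1.62 ± 0.55, unadjusted p = 0.0217), both read lower without overlap. Near polybromo CG13634 differed by -0.40 ± 0.15 (unadjusted p = 0.0351) and Ude by 0.36 ± 0.15 (unadjusted p = 0.0462). An unadjusted p under 0.05 was reached by no other neighbour, and by 11.0% of all genes. The cause was not tested.

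The largest called rises were led by MtnC and GILT3. MtnC, a metallothionein gene, read 4.66 and 6.54 (log2) in wild type females and 10.36 and 11.00 in mutants. It rose 33.8-fold (5.08 ± 0.64, SE, limma adjusted p = 0.0205), and its wild type animals lay further apart than its mutants. GILT3, which encodes a lysosomal thiol reductase, read 5.58 and 5.55 in wild type and 9.69 and 9.73 in mutants and rose 17.7-fold (4.15 ± 0.18, adjusted p = 0.000424). Here the replicates nearly coincided. CG33093 rose by 3.99 ± 0.25 (adjusted p = 0.00101), CG30286 by 3.31 ± 0.19 (adjusted p = 0.000962) and CG15404 by 3.06 ± 0.28 (adjusted p = 0.00583). The acyl-CoA synthetase gene hll read 6.15 and 6.26 in wild type and 8.92 and 9.09 in mutants and rose by 2.80 ± 0.45 (adjusted p = 0.0482). CG14823 rose by 2.77 ± 0.32 (adjusted p = 0.0152). One of its other probe sets rose by 3.36 (adjusted p = 0.0203), and the third, dim one differed by -0.08. Among smaller rises called whichever array was left out were fusl, a gene of presynaptic organisation (2.41 ± 0.14), CG10353 (2.32 ± 0.18) and plum, a gene of an immunoglobulin-family receptor known from neurons (2.11 ± 0.17). MtnC stayed called only without wild type female replicate 2, and CG15404 only without wild type female replicate 1, among omissions of a female array. The calls of hll and CG14823 ended without any 1 female array, and that of hll also without either wild type male and with the replicate number as a block (adjusted p = 0.0592).

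Falls were more numerous and reached larger sizes. LysX, a lysozyme gene, read 11.56 and 10.64 (log2) in wild type females and 4.97 and 5.39 in mutants. It fell by 5.92 ± 0.35 (SE, limma adjusted p = 0.000962), a 60.4-fold lower level, and its mutant levels lay just above the array medians. CG42846 read 9.82 and 9.88 in wild type and 4.59 and 4.29 in mutants and fell by 5.41 ± 0.21 (adjusted p = 0.000339). Both genes thus went from well above the bulk of probe sets to near or below its middle. CG40486 fell by 3.94 ± 0.23 on its brighter probe set, while its dim one differed by -0.10. CG15905 fell by 3.56 ± 0.25, CG11865 by 3.38 ± 0.16 and CG3823 by 3.16 ± 0.26. Jhbp7, a gene related to juvenile hormone binding proteins, read 8.50 and 8.53 in wild type and 5.26 and 5.55 in mutants and fell by 3.12 ± 0.19 (adjusted p = 0.00101). Each gene from LysX to Jhbp7 stayed called whichever array was left out. So did the smaller falls of hpRNA:CR33940 (-2.92 ± 0.19), rdo (-2.85 ± 0.21, with 0.15 on a dim second probe set), CG7675 (-2.71 ± 0.16) and the sulfotransferase gene St2 (-2.10 ± 0.15). CG13962 (-3.98 ± 0.64, adjusted p = 0.0466) and CG2065 (-3.58 ± 0.57, adjusted p = 0.0465) fell too, and both calls ended without any 1 female array and with the replicate number as a block (adjusted p = 0.0713 and 0.0664). The call of CG2065 ended also without either wild type male and with quantile normalization (adjusted p = 0.0622), and that of CG13962 with a robust variance trend (adjusted p = 0.0989).

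**Figure D1:**
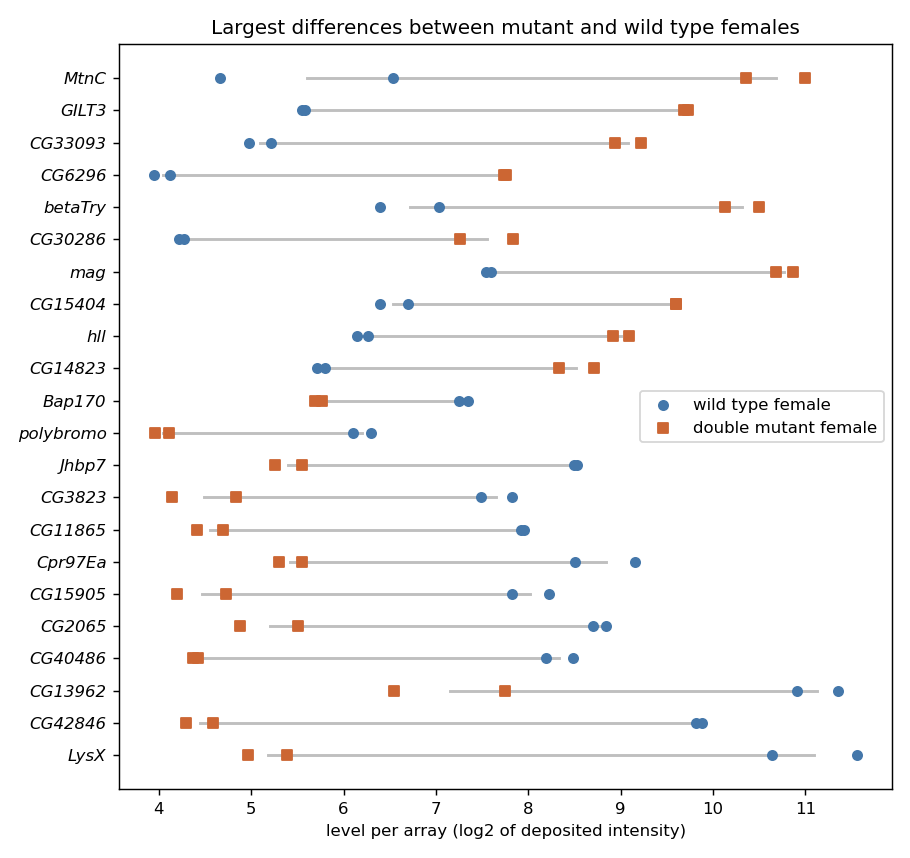
Level of the mutated genes and of the 10 largest called rises and falls in females (horizontal axis, log2 of the deposited intensity; 1 gene per line). Circles are the 2 wild type arrays, squares the 2 double mutant arrays, and the grey line joins the group means. The rises and falls were chosen among genes whose groups do not overlap, and those of the mutated genes do not overlap either. MtnC and CG13962 show wide gaps between replicates.

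Lists of pathways and tissues are described by their called members and their median, to be read against 1.22% of all genes called and a median of -0.04. Counts of members with an unadjusted p under 0.05 are to be read against 11.0% of all genes. Of 705 genes on the 30 lists 24 were called, and 122 called genes were on no list. In RNA of whole animals fewer cells of a type and less RNA per cell cannot be told apart.

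Genes of digestion in the midgut were called in both directions. Of 47 measured genes 3 rose and 1 fell, the list median was 0.27, and 32 members had positive differences, as did 44.2% of all genes. An unadjusted p under 0.05 was reached by 18 of the 47. The trypsin gene betaTry read 6.40 and 7.03 (log2) in wild type females and 10.13 and 10.50 in mutants and rose 12.1-fold (3.60 ± 0.47, SE, limma adjusted p = 0.0233). The lipase gene mag read 7.60 and 7.54 in wild type and 10.68 and 10.87 in mutants and rose 9.18-fold (3.20 ± 0.33, adjusted p = 0.00852). The replicates of mag differed by far less than the groups. Lip3, another lipase gene, rose by 1.31 ± 0.18 (adjusted p = 0.0287) from a wild type level of 3.96 and 4.02, where signal is near the floor of the arrays. Jon65Aii, a serine protease gene of the Jonah family, fell by 2.87 ± 0.15 (adjusted p = 0.00068), from 11.53 and 11.49 to 8.80 and 8.48. Other members did not pass. Among them, chosen after their values were seen, were Jon25Biii (2.69 ± 0.52, adjusted p = 0.0895), Amyrel (1.50 ± 0.26, adjusted p = 0.0599) and epsilonTry (2.38 ± 0.47, adjusted p = 0.0973), and each of these passed with a variance trend. The calls of betaTry, mag and Lip3 ended without any 1 female array, that of Lip3 also with the replicate number as a block (adjusted p = 0.0527). Without an array the list held 2, 0, 1 and 0 rises (wild type female replicates 1 and 2, mutant female replicates 1 and 2). In those omissions the fall of Jon65Aii was called each time.

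Lysozymes and lysosomal genes each turned on 1 gene. Of 3 lysozyme genes read on a probe set of their own LysX fell, while LysP (0.80 ± 0.27, limma adjusted p = 0.382) and LysS (0.58 ± 0.41, adjusted p = 0.815) did not pass, and the median was 0.58 (0.15 to 0.94 with 1 female array left out). An unadjusted p under 0.05 was reached by 2 of the 3. Of 10 genes of lysosomal thiol reductases, cathepsins and related proteins GILT3 rose, and its relative GILT2 (-0.23 ± 0.21, adjusted p = 0.86) was not called. Only GILT3 had an unadjusted p under 0.05. The other 9 lay between -0.26 (Npc1a) and 0.17 (cathD), with a list median of 0.03.

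Among metal and iron binding genes MtnC rose and Tsf3 fell, of 15 measured, with a list median of -0.15, or 0.02 without wild type female replicate 1. An unadjusted p under 0.05 was reached by 5 of the 15. The list held 2 rises with quantile normalization, with a variance trend and with filters at a mean log2 of 5 or 6. Tsf3, a transferrin family gene, read 8.75 and 8.46 (log2) in wild type females and 7.10 and 7.01 in mutants and fell by 1.55 ± 0.15 (SE, limma adjusted p = 0.00681). Its call ended without mutant female replicate 1 or 2 (adjusted p up to 0.0663). The other metallothionein genes did not follow MtnC: MtnA differed by -0.41 ± 0.30 (adjusted p = 0.82) and MtnB by -1.31 ± 0.55 (adjusted p = 0.548). Tsf1, which encodes the main iron carrier of the blood, read 9.53 and 10.01 in wild type and 11.62 and 12.73 in mutants, and its difference of 2.41 ± 0.43 missed the threshold (adjusted p = 0.0696).

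Chitin is the polysaccharide of the insect cuticle, and chitinases degrade it at each moult. Of 27 measured genes 3 fell and 0 rose, and 9 had an unadjusted p under 0.05. The chitinase gene Cht10 read 11.11 and 10.87 (log2) in wild type females and 9.24 and 9.23 in mutants and fell by 1.75 ± 0.14 (SE, limma adjusted p = 0.00364). Cht4, another chitinase gene, read 10.17 and 9.88 in wild type and 6.91 and 7.84 in mutants and fell 6.29-fold (-2.65 ± 0.32, adjusted p = 0.0181). The chitin deacetylase gene Cda4 fell by 1.36 ± 0.18 (adjusted p = 0.024). Other chitinase genes did not pass, such as Cht5 (-0.55 ± 0.19, adjusted p = 0.393) and Cht9 (1.04 ± 0.23, adjusted p = 0.136). Idgf3, of the chitinase-like growth factors, differed by 1.39 ± 0.37 (adjusted p = 0.241) and passed with the female arrays alone (adjusted p = 0.0373). The list median was -0.11, and lay between -0.20 and -0.06 with 1 female array left out. Cht10 stayed called whichever array was left out, Cht4 only without mutant female replicate 2 among the females, and Cda4 without none of them.

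Of 107 cuticle protein genes 2 fell and 0 rose, 14 had an unadjusted p under 0.05, and the median was 0.03. Cpr97Ea read 9.16 and 8.51 (log2) in wild type females and 5.30 and 5.55 in mutants and fell 10.7-fold (-3.42 ± 0.51, SE, limma adjusted p = 0.0367). Cpr78Ca fell by 1.37 ± 0.18 (adjusted p = 0.0242). Vajk2 and Vajk3, which encode a separate family of cuticle proteins, went the other way without passing. Vajk2 read 9.46 and 9.48 in wild type and 11.92 and 11.65 in mutants (2.31 ± 0.39, adjusted p = 0.0587), and Vajk3 differed by 2.50 ± 0.62 (adjusted p = 0.199). In both the female groups did not overlap, and with the female arrays alone both passed (adjusted p = 0.00289 each). The call of Cpr97Ea ended without any 1 female array, without either mutant male and with the replicate number as a block (adjusted p = 0.0528). Cpr78Ca stayed called only without wild type female replicate 1 among the females, and its call ended with quantile normalization (adjusted p = 0.0881).

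Detoxification families held a few calls in each direction. Of 83 cytochrome P450 genes 1 rose and 3 fell, 20 had an unadjusted p under 0.05, and the median was 0.02. Cyp310a1 read 7.10 on both wild type arrays and 4.86 and 5.08 in mutants and fell by 2.13 ± 0.16 (log2, SE, limma adjusted p = 0.00236), a call kept whichever array was left out. Cyp12c1 fell by 1.62 ± 0.22 (adjusted p = 0.0259) and Cyp9c1 by 1.47 ± 0.17 (adjusted p = 0.0129), and Cyp6a18 rose by 1.58 ± 0.22 (adjusted p = 0.0263). Cyp28a5 read 7.02 and 7.14 in wild type females and 4.64 and 4.69 in mutants, yet did not pass (-2.42 ± 0.74, adjusted p = 0.311). Its wild type males, which enter the shared estimate of spread, read 6.96 and 4.23. It passed with the female arrays alone (adjusted p = 0.00207). Of 69 glutathione and UDP-glycosyl transferase genes only Ugt302K1 was called, a rise of 0.86 ± 0.12 (adjusted p = 0.0284), and the median was 0.01. An unadjusted p under 0.05 was reached by 20 of the 69. GstE9 differed by 2.47 ± 0.48 (adjusted p = 0.0927) and passed with the female arrays alone (adjusted p = 0.0345). The calls of Cyp12c1, Cyp6a18 and Ugt302K1 ended without any 1 female array, and that of Cyp9c1 was kept among them only without mutant female replicate 2. That of Ugt302K1 also ended without either mutant male, with the female arrays alone (adjusted p = 0.0669), with a variance trend (adjusted p = 0.086), with a robust one (adjusted p = 0.0719) and with the replicate number as a block (adjusted p = 0.0588).

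Among 19 hemocyte markers, genes of the circulating immune cells, 7 had an unadjusted p under 0.05 and eater rose. This phagocytosis receptor gene read 5.10 and 5.02 (log2) in wild type females and 6.72 and 6.78 in mutants (1.69 ± 0.18, SE, limma adjusted p = 0.0103), and its call ended without any 1 female array. The summed intensity of the list was 8070 and 7810 in wild type and 9860 and 10100 in mutants, and the median difference was 0.26, or 0.11 without wild type female replicate 1 and 0.16 without mutant female replicate 2. The gene srp, a GATA factor of blood cells and fat body, differed by 0.83 ± 0.21 (adjusted p = 0.215). The prophenoloxidase genes PPO1 and PPO2, made by crystal cells, were uneven between the wild type animals. PPO1 read 9.39 and 6.81 there and 10.23 and 9.65 in mutants, and PPO2 10.10 and 7.96 against 10.84 and 10.54. Neither passed (adjusted p = 0.51 and 0.433), and without wild type female replicate 1 the list held 2 rises. The part of hemocyte number in other results was not tested. Among defining genes of the lineage, Hml differed by -0.30 ± 0.28 (adjusted p = 0.867), He by 1.93 ± 0.78 (adjusted p = 0.529) and NimC1 by -1.22 ± 1.02 (adjusted p = 0.851).

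Of 14 antimicrobial and humoral immune genes 0 were called by limma, 2 had an unadjusted p under 0.05, and the median was 0.21 (0.08 to 0.46 with 1 female array left out). PGRP-LB, a peptidoglycan-degrading enzyme gene, differed by 0.82 ± 0.34 (adjusted p = 0.543). BomS2, a short immune-induced peptide gene, showed how far single animals can part. It read 3.42 and 3.33 (log2) in wild type females and 3.78 in the first mutant, but 11.58 in the second. Outside the list, edin, a gene induced by infection and chosen after its values were seen, rose by 1.74 ± 0.21 (adjusted p = 0.0164) with even replicates, 6.06 and 6.04 against 7.73 and 7.85, and its call ended without any 1 female array.

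The lists of ecdysone receptors and early regulators, of effectors and of ecdysteroid synthesis held no call in females. Of 18 nuclear receptor and early regulator genes 0 passed in limma, 3 had an unadjusted p under 0.05 and 15 had positive differences, with a median of 0.19 beside -0.04 over all genes, of which 44.2% were positive. Hr96, a nuclear receptor gene of xenobiotic and lipid responses, read 7.44 and 7.37 (log2) in wild type females and 7.91 and 7.99 in mutants (0.55 ± 0.13, SE, adjusted p = 0.185). The receptor gene EcR read 4.61 and 4.93 in wild type and 6.03 and 5.09 in mutants (0.79 ± 0.30, adjusted p = 0.489), and br, a primary response gene, differed by 0.26 ± 0.14 (adjusted p = 0.72). Of 13 effector genes of metamorphosis 0 passed and 2 had an unadjusted p under 0.05, with a median of -0.05, and ImpE2, which read 12.64 and 12.60 in wild type and 11.88 and 11.47 in mutants, differed by -0.94 ± 0.20 (adjusted p = 0.114, and 0.0344 with a variance trend). Of 14 genes of ecdysteroid synthesis and metabolism 0 passed and 2 had an unadjusted p under 0.05, with a median of 0.02. The lowest p there was that of sro (0.56 ± 0.22, adjusted p = 0.502). The largest difference was that of shd, which encodes the hydroxylase that turns ecdysone into its active form. It read 6.49 and 6.12 in wild type and 7.88 and 7.65 in mutants (1.46 ± 0.58, adjusted p = 0.507), and it passed with the female arrays alone (adjusted p = 0.0304). The list also held 1 rise without either mutant male. Of 9 genes of the juvenile hormone pathway Jhbp7 fell and no other was called or had an unadjusted p under 0.05, with a median of -0.01.

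Salivary gland genes gave wide differences and 1 call. Glue proteins fix the animal to its substrate, and the 71E genes are transcribed later in the same glands. Sgs4 read 9.51 and 9.35 (log2) in wild type females and 4.20 and 3.92 in mutants. This difference of -5.37 ± 1.50 did not pass in limma (adjusted p = 0.255). The mutant males, which enter the shared spread, read 9.61 and 4.07, and with the female arrays alone Sgs4 was called (adjusted p = 0.000282). Sgs5bis read 8.37 and 5.74 in wild type and 9.86 and 11.59 in mutants (3.67 ± 0.93, adjusted p = 0.209). The abundant glue genes Sgs7 (-0.38 ± 0.16) and Sgs8 (0.04 ± 0.17) did not pass. Of the 13 glue genes 0 were called, 4 had an unadjusted p under 0.05, and the median was -0.38, or -0.21 without wild type female replicate 2. Sgs1, with the lowest p, differed by -0.70 ± 0.12 (adjusted p = 0.0546), and passed with quantile normalization (-0.74, adjusted p = 0.0307). Of 8 genes of the 71E puff Eig71Eg fell, from 11.11 and 11.43 to 9.24 and 9.91 (-1.69 ± 0.24, adjusted p = 0.0312), while the list median was 0.46 (0.33 to 0.70 with 1 female array left out). An unadjusted p under 0.05 was reached by 5 of the 8. Eig71Ek read 3.78 and 4.43 in wild type and 5.26 and 8.06 in mutants, so the mutants lay further apart than the groups' nearest arrays (2.55 ± 0.81, adjusted p = 0.34). Among omissions of 1 array the call of Eig71Eg was kept without mutant female replicate 2 and without either mutant male. Without mutant female replicate 1 the list held 2 rises and 0 falls.

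**Figure D2:**
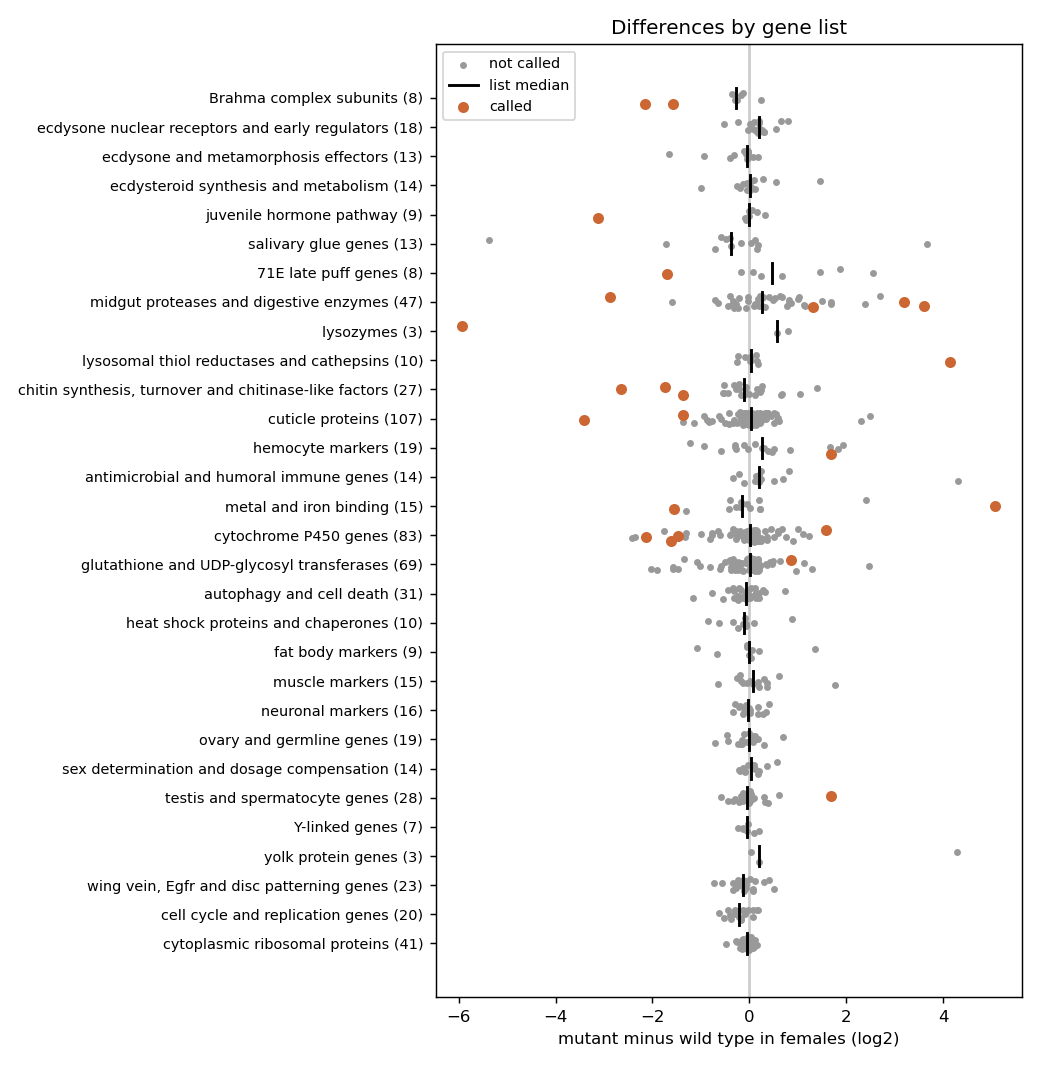
Difference between double mutant and wild type females (horizontal axis, log2) for every measured member of the 30 gene lists, with the number measured in brackets. Large points were called by limma, small grey points were not, and black bars are list medians, which lie between -0.38 and 0.58. Points are spread vertically only to keep them apart.

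No ovary, germline or yolk protein gene was called in the fit used for calling genes, and bam and Yp3 passed in some alternatives. Yolk proteins are made for the egg by the adult female's fat body and ovary. Yp3 read 7.42 and 4.70 (log2) in wild type females and 10.38 and 10.30 in mutant females, against 4.42 to 4.53 in all 4 males. Its difference of 4.28 ± 0.73 (SE) missed the threshold (limma adjusted p = 0.0603), and was at 0.0848 with the female arrays alone. Median centring (0.0435), 1 probe set per gene (0.0439) and filters at a mean log2 of 5 (0.0244) or 6 (0.0262) each brought it under the threshold. It passed with a variance trend (0.012), and without wild type female replicate 1 (5.64, 0.00095) or 2 (2.92, 0.0107). It did not pass without mutant female replicate 1 (0.293) or 2 (0.238), with a robust variance trend (0.105) or with the replicate number as a block (0.0664). Yp1 (0.04 ± 0.19, adjusted p = 0.986) and Yp2 (0.19 ± 0.20, adjusted p = 0.895) stayed under 4.80 on every array. Of the 3 yolk protein genes 1 had an unadjusted p under 0.05, and the median was 0.19. Of 19 ovary and germline genes 0 were called, 3 had an unadjusted p under 0.05, and the median was -0.01, with bam, a germline differentiation gene, at 0.70 ± 0.13 (adjusted p = 0.0718, and 0.0177 with a variance trend). All 4 of its female readings, 3.55 and 3.65 against 4.38 and 4.22, lay below the array medians. Of 14 genes of sex determination and dosage compensation 0 were called and 1 had an unadjusted p under 0.05 (mle, 0.58 ± 0.18, adjusted p = 0.337), with a median of 0.03. Sxl, the switch gene of the female pathway, differed by 0.36 ± 0.29 (adjusted p = 0.841). Of 28 genes of the testis list 2 had an unadjusted p under 0.05 and vis rose in these females. It encodes a homeodomain protein that spermatocytes use, and its difference was 1.68 ± 0.23 (adjusted p = 0.0284), from 3.83 and 3.61 to 5.26 and 5.53, and the list median was -0.04. The call of vis ended without any 1 female array and with the replicate number as a block (adjusted p = 0.054). None of 7 Y-linked genes was called or had an unadjusted p under 0.05 in limma, with a median of -0.04 and ARY at -0.24.

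The other lists held 0 calls in limma. Of 31 genes of autophagy and cell death 3 had an unadjusted p under 0.05 (median -0.07, from -0.18 to 0.01 with 1 female array left out), with the autophagy kinase gene Atg1 at 0.74 ± 0.13 (SE, adjusted p = 0.0706). Of 10 heat shock and chaperone genes 2 did (median -0.11), with stv at 0.89 ± 0.20 (adjusted p = 0.141). Among tissue markers 2 of 9 fat body genes (median 0.00), 3 of 15 muscle genes (median 0.07, or -0.43 and 0.41 without wild type female replicate 1 or 2) and 0 of 16 neuronal genes (median -0.03) did. The lowest p belonged there to Desat1 (1.35 ± 0.33, adjusted p = 0.187), TpnC73F (-0.64 ± 0.19, adjusted p = 0.294) and para (-0.33 ± 0.15, adjusted p = 0.621). Of 23 genes of wing veins, Egfr signalling and disc patterning 4 did (median -0.13, from -0.22 to -0.04 with 1 female array left out), with net at 0.52 ± 0.14 (adjusted p = 0.243). Of 20 cell cycle and replication genes 1 did (median -0.22, or -0.09 without wild type female replicate 1 and -0.11 without mutant female replicate 1), the cyclin gene CycB3 (-0.62 ± 0.16, adjusted p = 0.226), and 16 of the 20 were negative, as were 55.8% of all genes. Of 41 cytoplasmic ribosomal protein genes 0 did (median -0.04), with differences from -0.49 (RpLP0-like) to 0.15 (RpL27). Over all genes 11.0% had an unadjusted p under 0.05.

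Called genes of females were set beside the males of the same genotypes. The difference between the sexes was tested as the female minus the male genotype effect in the same fit. Of the 146 called genes 143 had the same sign in males, 86 were also called there (1.36% of all genes were), and 111 differed by more in females. Since the genes were chosen on the female values, a larger female size is favoured by the choice. Both genotype effects share the estimate of spread of each probe set, so a call in females also favours a call in males. The sex difference called 0 of 18769 probe sets in limma, and 6.31% had an unadjusted p under 0.05. Over genes this was 8.13%, and 38 of the 146 called genes were among them. The choice on the female values also favours a low p here, since the sex difference contains the female effect and shares its spread. Without mutant male replicate 2 the sex difference was called for 20 probe sets. Without any other single array the count was 0 or 1.

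Among the genes called in females, CG6296 had the lowest p for the sex difference. It read 4.12 and 3.95 (log2) in wild type females and 7.76 and 7.74 in mutant females, but 5.00 and 5.26 in mutant males. It rose by 3.72 ± 0.14 in females (SE, limma adjusted p = 0.000339) and by 1.18 ± 0.14 in males (adjusted p = 0.0175). The sex difference of 2.54 ± 0.20 missed the threshold (adjusted p = 0.0917). Its adjusted p was 0.0375 under a variance trend, 0.0154 under a robust one, and 0.018 when mutant male replicate 2 was left out. CG40486 read 8.19 and 8.48 in wild type females and 6.18 and 6.80 in wild type males, with all mutants between 4.12 and 4.46. Its sex difference was -1.74 ± 0.33 (limma adjusted p = 0.766), and the mutants of both sexes read below their array medians.

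For the 3 remaining genes the wild type sexes differed more than the mutant sexes or in the opposite order. CG7365 read 7.96 and 8.06 (log2) in wild type females, and 6.18 to 6.92 on all other arrays. It fell by 1.23 ± 0.19 in females (SE, limma adjusted p = 0.0397) and differed by 0.31 ± 0.19 in males (sex difference -1.54 ± 0.27, adjusted p = 0.56). The gene cysu read 7.59 and 7.38 in wild type females, and 5.44 to 6.04 elsewhere. It fell by 1.75 ± 0.21 in females (adjusted p = 0.016) and differed by -0.18 ± 0.21 in males (sex difference -1.57 ± 0.29, adjusted p = 0.719). Mutant females thus lay in or near the range of the males for both genes. CG9497 rose by 2.40 ± 0.31 in females (adjusted p = 0.024), from 5.16 and 4.71 to 7.54 and 7.13, and differed by -0.33 ± 0.31 in males (sex difference 2.73 ± 0.44, adjusted p = 0.545). The calls of CG7365 and CG9497 in females ended without any 1 female array, that of CG7365 also without either mutant male, with quantile normalization (adjusted p = 0.226) and with the replicate number as a block (adjusted p = 0.0614). That of cysu ended without wild type female replicate 1 or 2 (adjusted p up to 0.118). For Yp3 the sex difference was 4.30 ± 1.04 (limma adjusted p = 0.766), and without wild type female replicate 1, the higher of that pair, it was 5.66 (adjusted p = 0.00417).

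**Figure D3:**
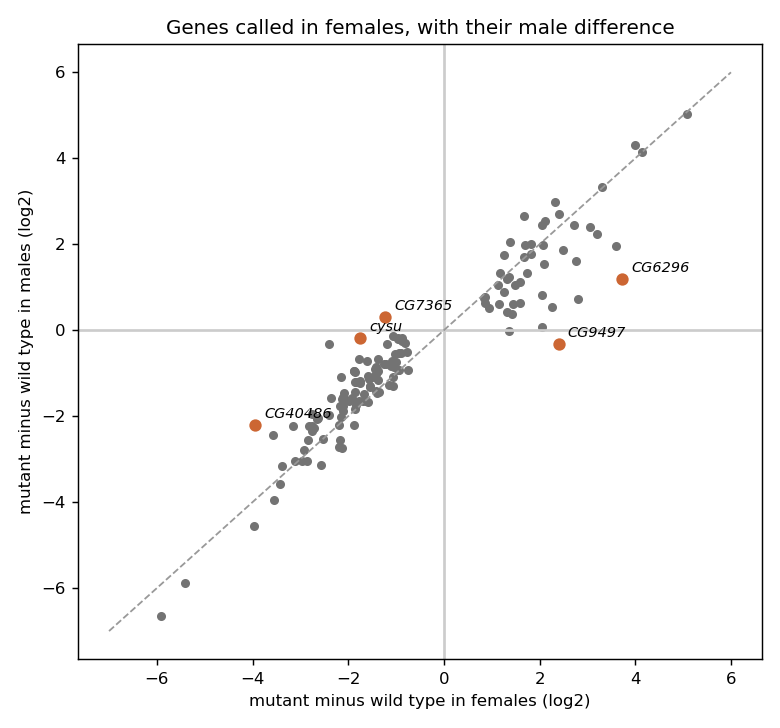
Each point is 1 of the 146 genes called in females, with its difference in females (horizontal axis, log2) and in males (vertical axis, log2). The dashed line marks equal differences. Orange points are the 5 called genes with the lowest p for the sex difference, none of which passed after adjustment, and 143 of the points have the same sign on both axes.

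**Figure D4:**
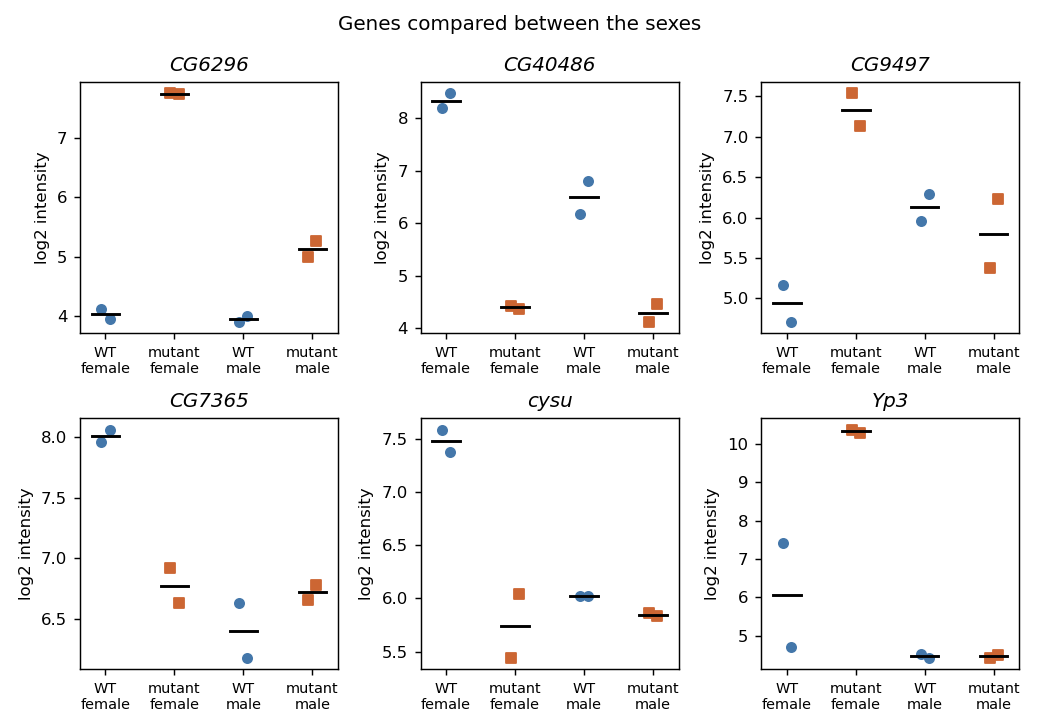
Level on each of the 8 arrays (vertical axis, log2 of the deposited intensity, with a separate range per panel) of the 5 called genes with the lowest p for the sex difference and of Yp3. Circles are wild type, squares are double mutants and bars are means of 2 arrays. Yp3 lies near 10.3 in both mutant females, at 7.42 and 4.70 in wild type females and near 4.5 in males.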

How the data were processed

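The authors deposited linear intensities for 8 one-colour Affymetrix arrays. The submitters' processing notes name RMA, a method that removes background, equalizes arrays and combines the probes of a set, with no software version. In the deposited values the array medians still differed between the sexes. Residual background makes differences of dim probe sets look smaller than they are. After a log2 step 183 control probe sets of 18952 were dropped, which left 18769. The platform annotation gave 1 symbol for 13647 probe sets, several for 402 and none for 4720. Each of 11982 genes was read on its probe set with the highest mean. The genes Vajk2, GstE9, Idgf3, shd and Arc1 have 2 probe sets each and br has 5, and their dimmer ones are not given here.

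Tests used limma 3.58.1 in R 4.3.3 (lmFit and eBayes) on 4 group means of 2 arrays, with 4 residual and 3.03 prior degrees of freedom and Benjamini-Hochberg adjustment over all probe sets at 0.05. Leaving out either array of a male group changes only the shared spread in the female contrast, so the adjusted p is the same for both. On simulated data for the female contrast, with 200 changed among 18769 probe sets, 0% of log2 changes of 0.5 were recovered, 50.7% of changes of 1 and 92.4% of changes of 2. The simulated noise was normal, independent between arrays and drawn with the fitted spread, and only mutant females were changed. It did not model single divergent animals such as those seen for BomS2, so recovery on the real arrays can differ.

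Genes named were Bap170, polybromo, the 10 largest called rises and falls without overlap, up to 8 more per direction called whichever array was left out, up to 6 called members per list (or the lowest p), the 5 lowest p for the sex difference among called genes, and Sxl, msl-2 and the yolk protein genes. Others are named after their values were seen. The comparison, lists and rule were chosen with earlier results of these data known, and 1 gene placed by mistake on the lysosomal list was removed after values were seen. Alternatives covered scaling, dim probe sets, the samples in the fit, the variance prior, the replicate number as a block, 1 probe set per gene, a 2-fold threshold and each array left out. The number of arrays limits the precision.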

Additional observations from a re-analysis of the deposited data

How the results depend on the processing

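Probe sets called in females numbered 177, of which 60 were higher and 117 lower in mutants. The total stayed within 1.5 times of this after quantile normalization (212), median centring (180), filters at a mean log2 of 5 (186) or 6 (128, with 77 lower), with the female arrays alone (224), with a variance trend (246) and with 1 probe set per gene (150). A robust variance trend gave 278, with 112 higher, and the variance trend 99 higher. Testing against a 2-fold difference left 23, 9 higher and 14 lower. With 1 array left out the total lay between 44 and 173, the rises between 15 and 67 and the falls between 26 and 113. The lowest totals came from the omission of a female array, which leaves 1 animal in its group, assumed to vary like the other groups. The sex difference was called for 0 probe sets, for 5 with a variance trend, for 9 with a robust one, and for 0 to 20 with 1 array left out. With the replicate number as a block 133 probe sets were called in females, and 92 of the 146 called genes stayed called. Deviations of same-numbered females correlated at r = 0.219, of males at -0.178, and with 2 pairs this does not show that the numbers pair the animals. Of 47 named called genes 16 passed against a 2-fold difference, and all kept their sign in every alternative that tested them, and Yp1, not called, went from 0.04 to between -0.16 and 0.23 with 1 array left out. With the female arrays alone 60 further genes were called, 31 higher and 29 lower, and 123 of the 146 remained. The causes of these changes were not tested.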

Other observations

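Of the genes that supply the building block of chitin, chosen after their values were seen, Gfat1 and Gnpnat fell. Gfat1 encodes the first enzyme of UDP-N-acetylglucosamine synthesis, and had a mean level of 10.44 (log2) in wild type females and 8.89 in mutants, with no overlap. It fell by 1.55 ± 0.24 (SE, n = 2 per group, limma adjusted p = 0.0416). Gnpnat, which encodes the acetyltransferase of the same route, read 10.21 on both wild type arrays and 8.79 and 8.84 in mutants and fell by 1.39 ± 0.12 (adjusted p = 0.00503). The paralogue Gfat2 (-0.29 ± 0.17, adjusted p = 0.761), the last enzyme gene mmy (0.00 ± 0.20, adjusted p = 1) and the chitin synthase gene kkv (-0.08 ± 0.20, adjusted p = 0.966) did not pass. The gene stw, which encodes the laccase that tans cuticle, fell by 1.85 ± 0.27 (adjusted p = 0.032). Gfat1 has 2 probe sets, Gnpnat 3 and stw 3, and only the brightest of each is given here. The calls of Gfat1 and stw ended without any 1 female array, that of Gfat1 also without either wild type male and with the replicate number as a block (adjusted p = 0.0768). Omitting wild type female replicate 2 ended that of Gnpnat (adjusted p = 0.0559).

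The sulfotransferase gene pip and the gene wbl, whose product brings Pipe from the endoplasmic reticulum to the Golgi apparatus, also fell. The gene pip read 6.66 and 7.06 (log2) in wild type females and 4.72 and 4.78 in mutants (-2.11 ± 0.20, SE, limma adjusted p = 0.00645), and wbl read 9.97 and 10.25 against 8.22 and 8.32 (-1.84 ± 0.19, adjusted p = 0.00767). For pip these are the values of the brightest of 10 probe sets, and the others are not given here. Both were chosen after their values were seen, and among omissions of a female array each call was kept only without wild type female replicate 1. The sulfate donor transporter gene sll (-0.14 ± 0.15, adjusted p = 0.897) did not pass. Among transport genes the aquaporin gene Prip (-1.14 ± 0.14, adjusted p = 0.0181) and the zinc transporter gene Zip89B (-1.60 ± 0.17, adjusted p = 0.0103) fell and the zinc transporter gene ZnT77C rose (1.14 ± 0.17, adjusted p = 0.0372), and these 3 calls ended without any 1 female array, that of ZnT77C also with the replicate number as a block (adjusted p = 0.0692). Prip was read on the brighter of its 2 probe sets. Neighbours in gene order were taken among 11796 measured protein-coding genes, so unmeasured genes can lie between them. Of such neighbours 4 pairs were called in the same direction, all lower. Of single genes 0.826% were called lower, and how many pairs this would give was not worked out. The pairs were veil and NT5E-2, which both encode 5'-nucleotidases, CG13594 and Cyp9c1, CG13912 and LysX, and CG2604 and CG14664. Of these 8 genes only LysX stayed called whichever array was left out. With the replicate number as a block the calls of veil (adjusted p = 0.0614), NT5E-2 (0.0535), CG13912 (0.0805) and CG2604 (0.0595) ended, so that CG13594 with Cyp9c1 was the one pair in which both calls were kept.

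Several genes with large gaps between the female groups were called with the female arrays alone but not with all 8 arrays in the fit. CG10799 read 4.41 and 5.39 (log2) in wild type females and 9.30 and 10.26 in mutants (4.88 ± 0.94, limma adjusted p = 0.09, and 0.00606 with the female arrays alone). Daao1, a D-amino acid oxidase gene, read 7.17 and 6.72 in wild type females and 10.35 and 11.08 in mutants (adjusted p = 0.252, and 0.00367), while its wild type males read 5.13 and 8.91. Arc1, which encodes a capsid-like protein, read 13.40 and 12.91 against 11.09 and 11.46 (adjusted p = 0.0546, and 0.0235).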
